A study of Mus musculus with 24 samples.

Results

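The genes described here are nuclear genes for subunits of the mitochondrial respiratory chain and of the ATP synthase, complexes I to V of oxidative phosphorylation. They were taken by symbol: the names that start with Ndufa, Ndufb, Ndufc, Ndufs or Ndufv and a number, Sdha to Sdhd, Uqcr, Cox4 to Cox8, and Atp5. Assembly factors named Ndufaf were left out. Subunit genes with other names, such as Cyc1 of complex III, were not taken, so counts by complex do not cover every nuclear subunit. This gave 84 genes of the 19505 named genes on the array, each measured by 1 transcript cluster (the probes that report 1 gene). Complex I had 35 of them, complex II 4, complex III 8, complex IV 20 and complex V 17. Ndufa4 and Ndufa4l2 carry complex I names but were counted with complex IV, where the Ndufa4 protein sits. The rule used names and no measured value, though it was chosen with earlier results of these data known. None of the 13 subunits encoded by mitochondrial DNA had a named cluster, so the results concern nuclear subunits of each complex.

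The RNA came from mouse liver macrophages sorted by F4/80, the surface product of Adgre1, and was hybridized to 24 Clariom S arrays, 3 in each of 8 groups. In the LR+SE groups the spleen had been removed 7 days before 70% of the liver, and macrophages were taken 24 h, 3 days and 7 days after resection. The LR groups had the same resection and times with the spleen in place. The SE group had lost the spleen and kept the whole liver, and the group labelled intact had both organs. Sham operations are mentioned in the methods, so it is not settled whether the intact animals were operated on. All mice were C57BL/6 males per the same methods, and their age was not given in the sources used here. Each preparation pooled the cells of several mice. Signal of Y-linked genes differed between arrays inside LR+SE 3 days and inside LR 7 days, so those arrays did not all come from the same pool. For the other groups nothing shows that the 3 arrays were separate pools. The methods count too few SE mice to fill 3 separate pools of the size they state. So p-values measure the spread between these preparations, which may be technical.

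The respiratory chain passes electrons along the inner mitochondrial membrane to oxygen and pumps protons, and the ATP synthase lets the protons back and makes ATP. Complex I takes electrons from NADH and complex II takes them from succinate, an intermediate of the tricarboxylic acid (TCA) cycle. Complex III hands them to cytochrome c, and complex IV passes them to oxygen. Around the catalytic cores sit many small accessory subunits, all encoded in the nucleus. Macrophages are known for shifting between this route and glycolysis, with inflammatory activation favouring glycolysis and repair-associated states favouring oxidative phosphorylation.

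Promoters of such genes are known for sites of NRF-1, of ETS proteins such as GABP, and of YY1. Their motifs were searched for on both strands in the 300 bases from 250 before to 50 after each RefSeq start site (build GRCm38.p6). The letters were CCGGAAG for ETS, AAGATGGCG for YY1 and, for NRF-1, the palindrome that stands in capitals in the Atp5g2 promoter printed here, with CCAAT of the general factor NF-Y for comparison. Of the 84 genes, 69 matched the RefSeq table, with 74 promoters. The NRF-1 letters stood in 6.76% of these promoters and in 0.971% of all 32851 mouse promoters. The ETS letters stood in 23% of them and in 8.86% of all, and the YY1 letters in 9.46% and in 1.4%. CCAAT stood in 41.9% of them and in 37.4% of all. A match is an exact run of letters and no evidence of binding. Printed here are the promoters of 4 genes that recur in the results, each from the minus strand and written 5′ to 3′ with NRF-1, ETS and YY1 letters in capitals. Cox6a1 (chr5:115348909-115349208) held an NRF-1, an ETS and a CCAAT match, Atp5g2 (chr15:102670998-102671297) an NRF-1 match, Atp5j (chr16:84834927-84835226) a YY1 and an ETS match, and Ndufa8 (chr2:36049289-36049588) no match to any of the 4 motifs. The Ndufa8 promoter does hold a run that differs from the NRF-1 letters in a single base.
Cox6a1: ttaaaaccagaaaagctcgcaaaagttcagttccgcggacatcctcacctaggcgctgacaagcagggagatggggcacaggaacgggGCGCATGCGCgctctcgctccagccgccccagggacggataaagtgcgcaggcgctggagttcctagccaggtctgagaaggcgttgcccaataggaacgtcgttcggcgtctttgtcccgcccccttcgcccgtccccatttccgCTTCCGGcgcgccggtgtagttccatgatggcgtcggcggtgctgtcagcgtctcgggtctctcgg
Atp5g2: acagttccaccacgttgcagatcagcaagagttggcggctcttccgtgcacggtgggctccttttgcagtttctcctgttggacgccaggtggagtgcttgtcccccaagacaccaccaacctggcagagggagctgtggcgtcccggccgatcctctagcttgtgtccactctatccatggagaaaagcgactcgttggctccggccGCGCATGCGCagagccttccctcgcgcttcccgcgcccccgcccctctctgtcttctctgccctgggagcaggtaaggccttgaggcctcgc
Atp5j: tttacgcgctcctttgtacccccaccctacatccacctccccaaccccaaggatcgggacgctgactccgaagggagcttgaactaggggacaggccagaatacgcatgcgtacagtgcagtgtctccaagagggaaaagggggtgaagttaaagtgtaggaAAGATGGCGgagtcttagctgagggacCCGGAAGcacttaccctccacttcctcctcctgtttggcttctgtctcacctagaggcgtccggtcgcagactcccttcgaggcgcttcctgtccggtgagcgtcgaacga
Ndufa8: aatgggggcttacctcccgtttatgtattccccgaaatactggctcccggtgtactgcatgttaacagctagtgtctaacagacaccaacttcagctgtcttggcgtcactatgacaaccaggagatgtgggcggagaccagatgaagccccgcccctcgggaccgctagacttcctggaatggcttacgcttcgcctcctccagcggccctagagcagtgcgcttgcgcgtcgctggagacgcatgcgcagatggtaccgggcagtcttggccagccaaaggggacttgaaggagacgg

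Values are normalized log2 signals as deposited, and a difference of 1 is a 2-fold difference on the deposited scale. The table ran from 1.73 to 19.93, and the highest value of any of the 84 genes was 17.5. A background level of 3.70, the 95th percentile of 1091 odorant receptor clusters, had 78 of the 84 genes above it by their mean. Of all clusters 43.5% lay below it, so shares of all clusters include many dim ones. Macrophage markers were high on every array: the means of 11 Kupffer cell markers lay between 14.7 and 17.0, and Clec4f, a lectin of Kupffer cells, averaged at least 17.4 in each group. Hepatocyte transcripts were also present, and the mean of 11 hepatocyte genes lay between 11.4 and 13.2 on the LR+SE 3 days arrays and between 6.44 and 8.27 on the SE arrays. The exon over intron control area under the curve, a quality measure of each array, lay between 0.819 and 0.830 in LR+SE 3 days and between 0.759 and 0.788 in SE. The 3 Y-linked genes measured were at background on 5 arrays, which goes against male mice: all 3 intact arrays, replicate 1 of LR+SE 3 days and replicate 2 of LR 7 days. Results that rest on these arrays are given without single arrays, or with Y-linked signal as a block in the fit. The share of all clusters that passed in such alternative fits is not given here. All arrays of SE, LR 24 h and LR 3 days had the signal. In their comparisons with intact, the operations and the Y-linked difference therefore cannot be told apart. The interactions use the same intact and SE arrays. The block takes its estimate only from LR+SE 3 days and LR 7 days, the groups that held both kinds of array.

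The 84 genes together were lowest in SE. Their mean level was 7.78 ± 0.23 in SE (mean ± SD, n = 3 arrays here and below). It was 8.39 ± 0.68 in LR+SE 24 h, 9.38 ± 0.03 in LR+SE 3 days and 9.05 ± 0.38 in LR+SE 7 days. It was 8.67 ± 0.19 in intact, 8.79 ± 0.56 in LR 24 h, 9.28 ± 0.14 in LR 3 days and 9.13 ± 0.33 in LR 7 days. The highest SE array, at 8.04, lay below all arrays of the other groups except the 2 lower LR+SE 24 h arrays, at 7.96 and 8.03. The third LR+SE 24 h array stood at 9.17, and 1 LR 24 h array stood at 8.18 beside 8.91 and 9.27, so the 24 h groups were the most widely spread. A moderated F test over all groups in limma, with Benjamini-Hochberg adjustment here and below, passed for 44 of the 84 genes, against 15.4% of all clusters. By complex these were 19 of 35, 1 of 4, 3 of 8, 9 of 20 and 12 of 17, from I to V.

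**Figure D1:**
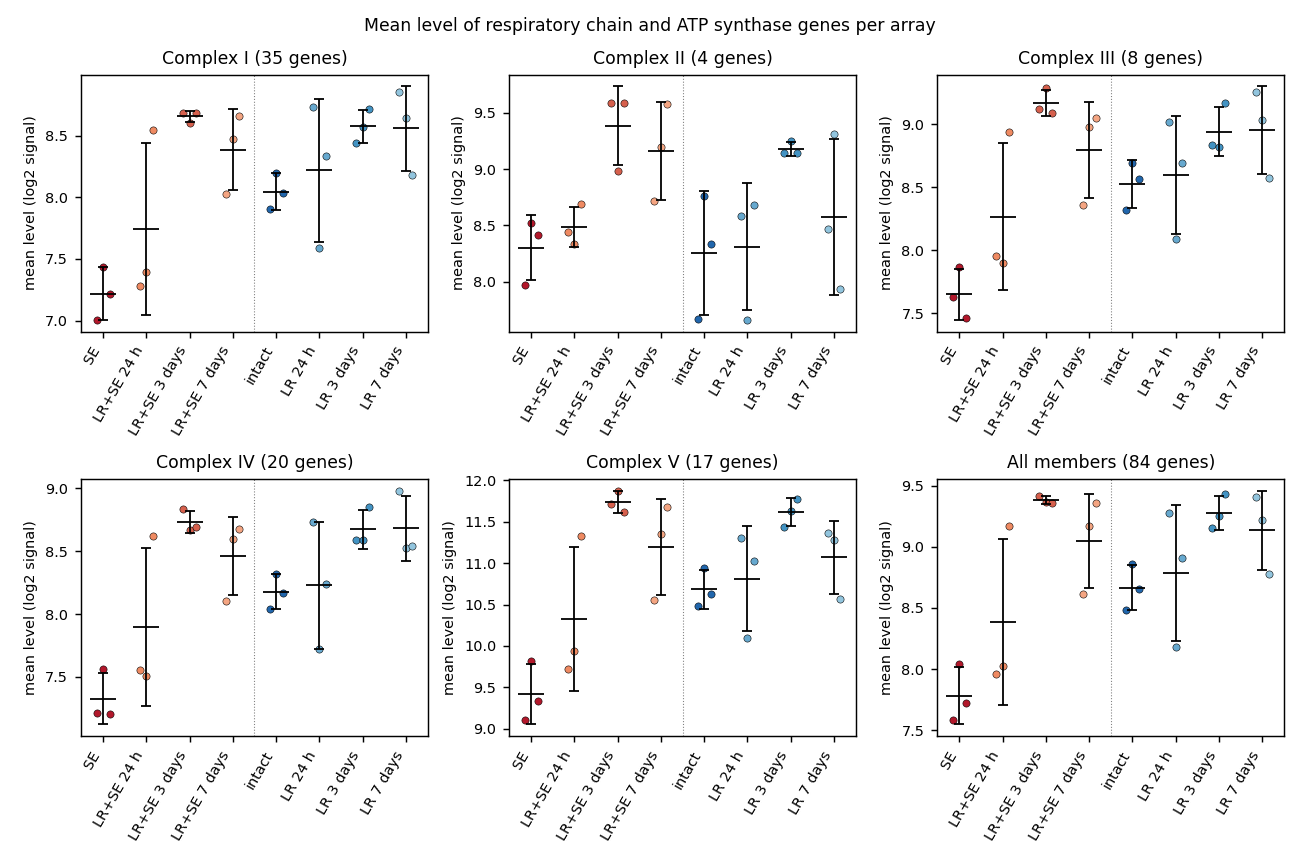
Mean level (log2 signal) of the genes of each complex on each array, by group. Points are arrays and bars the mean ± SD of 3 arrays. SE is the lowest group in complexes I, III, IV and V, while complex II in SE (8.30) lies level with intact (8.25).

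Most of these genes had lower levels in SE than in intact, and 2 of them passed the test. Compared with intact, 73 of the 84 genes were lower in SE, and the median difference was -0.78 on the log2 scale, against 0.01 over all 22206 clusters. After adjustment, the 2 genes that passed were both lower in SE, where 0.369% of all clusters passed lower and 0.554% in either direction. Without adjustment, 38 genes lay lower and 1 higher at p under 0.05, where 7.11% of all clusters lay lower and 5.75% higher. Of the clusters above background 10.8% lay lower and 6.71% higher, and 48.7% of the 78 genes above background lay lower. The 3 SE arrays lay below all 3 intact arrays for 41 genes, and 9.11% of all clusters were separated in that direction. In a bulk preparation, fewer cells that carry a transcript and less of it per cell cannot be told apart. Y-linked signal was present on every SE array and on no intact array, so splenectomy and that difference cannot be told apart either.

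Cox6a1, an accessory subunit of complex IV in its widely expressed form, had levels of 10.85, 11.25 and 11.17 in SE, against 13.39, 14.32 and 14.10 in intact. Every SE array lay far below every intact array. It fell by 2.85 ± 0.61 (± standard error, adjusted p = 0.0368). Ndufa8, an accessory subunit of complex I whose promoter held none of the letters searched, had levels of 7.39, 8.05 and 8.59 in SE, against 10.08, 10.28 and 10.05 in intact. The intact arrays lay close together and the SE arrays apart from them. It fell by 2.13 ± 0.42 (adjusted p = 0.0228).

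Other genes with large differences did not pass. Ndufs7, an iron-sulfur subunit of complex I that passes electrons to ubiquinone, had 6.14, 6.90 and 6.78 in SE, against 9.16, 10.18 and 9.86 in intact (difference -3.13 ± 0.88, adjusted p = 0.111). Atp5g1, which encodes the subunit c that forms the rotating ring of the ATP synthase, had 7.80, 9.13 and 8.72 in SE, against 12.25, 10.70 and 10.83 in intact (-2.71 ± 0.77, adjusted p = 0.118). The 2 groups did not overlap for either gene. Complex V had the lowest median difference, -1.22, with 11 of its 17 genes separated, followed by -0.82 in complex III, -0.74 in complex I and -0.69 in complex IV.

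Complex II genes had differences of both signs. Sdha, its flavoprotein, had 7.08, 7.39 and 6.63 in SE, against 5.49, 6.97 and 6.29 in intact, and the difference was 0.78 ± 0.45 (adjusted p = 0.489). Sdhb, the iron-sulfur subunit, and Sdhc, a membrane anchor, had differences of 0.24 ± 0.40 and 0.20 ± 0.33, and Sdhd, the other anchor, -1.02 ± 0.60. The groups overlapped for all 4. In complex I, Ndufv1, the subunit that binds NADH, had a difference of 0.27 ± 0.27, and in complex IV Cox5a had -0.03 ± 0.38.

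The number of calls in SE moved with the setting in both directions. A fit on the compared arrays alone gave 12 and a filter on dim clusters 5, all lower in SE, with the shares of all clusters in these fits not given here. Both calls were lost with Y-linked signal as a block, which gave 0 calls and a median difference of -0.73, and the count was 1 without replicate 3 of SE and 0 without any other SE or intact array, with medians from -1.01 to -0.62. Hepatocyte genes moved with them: all 11 were lower in SE than in intact, 4 of them passed, and Alb, the hepatocyte product albumin, averaged 16.10 ± 1.45 in SE and 19.76 ± 0.08 in intact. With the hepatocyte mean as a covariate the median difference was -0.42, and with the array quality measure as a covariate it was -0.33, with 0 calls in both.

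After splenectomy, resection was followed by higher levels of these genes. At 24 h none of the 84 genes passed in LR+SE against SE, where 1.33% of all clusters did. The median difference was 0.59, 19 genes lay higher at an unadjusted p under 0.05 (6.83% of all clusters did), and replicate 3 of LR+SE 24 h lay far above the other 2. Without replicate 1 of SE 1 gene passed at 24 h, and without replicate 1 of LR+SE 24 h 2 did. At 3 days 49 of the 84 genes passed, all higher in LR+SE than in SE, where 5.12% of all clusters passed higher and 6.92% in either direction. Of the clusters above background 11.3% passed in either direction, and of the 78 genes above background 62.8%. The median difference was 1.54, against -0.04 over all clusters. At 7 days 21 genes passed, all higher, where 0.77% of all clusters passed higher and 1.52% in either direction, and the median was 1.20. All 3 comparisons share the same 3 SE arrays, which also gave the low side of the comparison with intact.

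**Figure D2:**
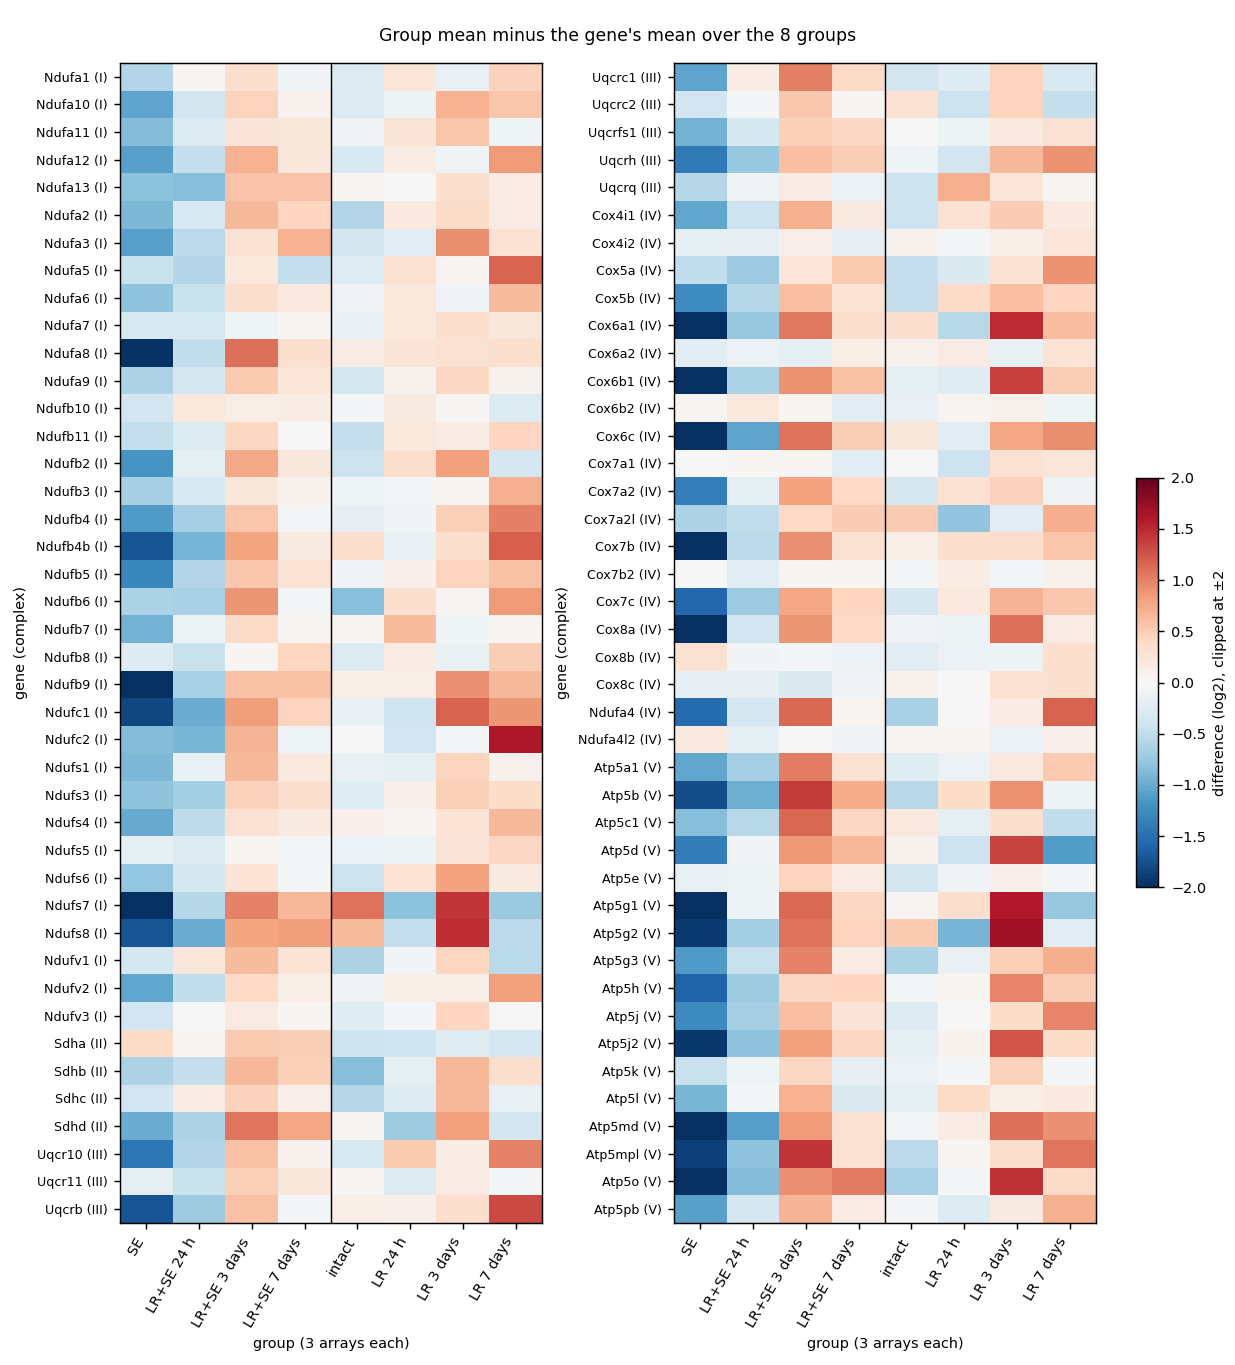
Group mean of each of the 84 genes minus that gene's mean over the 8 groups (colour, log2 units, clipped at ±2), with groups across and genes down, ordered by complex. The SE column is low for most genes of complexes I, III, IV and V, and the LR+SE 3 days and LR 3 days columns are high.

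The ATP synthase had the largest share of calls at 3 days, 15 of 17 genes, with a median difference of 2.13. The complexes also differed in signal. The median level of complex V was 11.2, against 8.02 in complex I, 8.63 in II, 7.88 in III and 9.82 in IV. All 17 genes of complex V lay above background, and 15 of 20 in complex IV did. Atp5b, the catalytic beta subunit, had 15.58, 16.32 and 15.77 in LR+SE 3 days, against 12.32, 13.31 and 12.51 in SE. The groups were far apart, and the gene rose by 3.18 ± 0.47 (adjusted p = 2.71e-04). Atp5a1, the alpha subunit that alternates with beta in the catalytic head, had 15.64, 16.25 and 16.31 in LR+SE 3 days, against 13.37, 14.47 and 14.19 in SE. It rose by 2.06 ± 0.36 (adjusted p = 0.00131).

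Subunit c is made from 3 genes with the same mature protein. Atp5g1 had 13.03, 12.18 and 11.81 in LR+SE 3 days, against 7.80, 9.13 and 8.72 in SE, and rose by 3.79 ± 0.77 (adjusted p = 0.00409). Atp5g2 had 13.66, 12.95 and 13.25 in LR+SE 3 days, against 9.99, 10.82 and 10.04 in SE, and rose by 3.00 ± 0.59. Atp5g3 had 10.69, 11.32 and 11.14 in LR+SE 3 days, against 8.91, 8.80 and 9.03 in SE, and rose by 2.13 ± 0.41. The groups were separate for all 3 genes.

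In the stalk that holds the head in place, Atp5o rose by 3.14 ± 0.64, Atp5h by 2.04 ± 0.49 and Atp5j by 1.88 ± 0.38. Atp5j had 9.61, 10.32 and 9.28 in LR+SE 3 days, against 7.49, 8.27 and 7.79 in SE, without overlap. Atp5pb, another subunit of that stalk, had a difference of 1.77 ± 0.80 and did not pass (adjusted p = 0.220). In the central stalk, Atp5c1 (gamma) rose by 2.00 ± 0.51 and Atp5d (delta) by 2.25 ± 0.52, while Atp5e (epsilon) had 0.59 ± 0.49 (adjusted p = 0.556). The small membrane subunit gene Atp5mpl had 11.91, 11.99 and 11.55 in LR+SE 3 days, against 8.08, 8.96 and 8.52 in SE, and rose by 3.30 ± 0.51 (adjusted p = 3.73e-04). The 2 groups of Atp5mpl lay far apart. Atpif1, which encodes the inhibitor of the ATP synthase and is not one of the 84 genes, had a difference of 1.45 ± 0.49 and did not pass (adjusted p = 0.0817).

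In complex IV 10 of 20 genes passed at 3 days, all of them subunits of the widely expressed form. Cox6a1 had 15.41, 14.29 and 14.27 in LR+SE 3 days, against 10.85, 11.25 and 11.17 in SE, and rose by 3.57 ± 0.61 (adjusted p = 0.00101). Cox6c had 13.51, 13.37 and 13.23 in LR+SE 3 days, against 9.30, 10.63 and 10.28 in SE, and rose by 3.30 ± 0.60. Cox6b1, which faces the intermembrane space near cytochrome c, had 11.75, 10.06 and 10.75 in LR+SE 3 days, against 7.44, 7.86 and 7.74 in SE, and rose by 3.17 ± 0.64. The 2 groups were separate for each, by the smallest margin for Cox6b1. Cox7c had 17.39, 17.00 and 17.03 in LR+SE 3 days, against 14.48, 15.15 and 14.75 in SE, and rose by 2.34 ± 0.44. Cox7b rose by 2.95 ± 0.50, Cox8a by 2.89 ± 0.62, Ndufa4 by 2.67 ± 0.65, Cox7a2 by 2.17 ± 0.45, Cox5b by 1.84 ± 0.32 and Cox4i1 by 1.76 ± 0.52.

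Genes for tissue forms of complex IV did not pass. Cox4i2, Cox6b2, Cox7b2, Cox8b and Ndufa4l2 had means below the background level, as did Ndufv3 of complex I. Cox4i2, known from lung, had 2.98, 3.04 and 3.05 in LR+SE 3 days, against 2.86, 2.83 and 2.51 in SE. Cox6a2 and Cox7a1, the heart and muscle forms, averaged 3.93 and 4.75 over all arrays, near background, and had differences of 0.03 ± 0.18 and 0.04 ± 0.28. Those 2 genes overlapped between the groups. Cox5a, a subunit without a tissue form among these genes, had 12.11, 11.15 and 12.47 in LR+SE 3 days, against 11.05, 11.49 and 11.02 in SE (0.72 ± 0.38, adjusted p = 0.292), and these groups overlapped too. Cox7a2l, linked to the joining of complexes III and IV, had 1.00 ± 0.43 (adjusted p = 0.186).

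In complex I 19 of 35 genes passed at 3 days, and all 35 differences were positive. Ndufa8 had 11.25, 11.12 and 10.87 in LR+SE 3 days, against 7.39, 8.05 and 8.59 in SE, and rose by 3.07 ± 0.42 (adjusted p = 1.64e-04). The lowest LR+SE array lay well above the highest SE array. Among the core subunits, Ndufs7 had 10.69, 8.93 and 9.31 in LR+SE 3 days, against 6.14, 6.90 and 6.78 in SE, and rose by 3.03 ± 0.88 (adjusted p = 0.0401). Ndufs8, another iron-sulfur subunit, rose by 2.50 ± 0.74, the core subunit Ndufs3 by 1.27 ± 0.32 and Ndufv1 by 0.99 ± 0.27. Ndufs1, the largest iron-sulfur subunit, had 8.25, 8.35 and 8.26 in LR+SE 3 days, against 6.34, 6.96 and 6.94 in SE, without overlap, and 1.54 ± 0.58 did not pass (adjusted p = 0.127).

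Among accessory subunits of complex I, Ndufb9 rose by 2.89 ± 0.67, Ndufc1 by 2.67 ± 0.63, Ndufb2 by 1.94 ± 0.37 and Ndufb5 by 1.84 ± 0.35. Ndufb4 and its near copy Ndufb4b rose by 1.69 ± 0.42 and 2.52 ± 0.56, and their probes may share transcripts. The smallest differences were 0.22 ± 0.26 for Ndufa7, 0.23 ± 0.32 for Ndufs5 and 0.27 ± 0.29 for Ndufb8. Ndufb8 had 6.22, 5.44 and 5.96 in LR+SE 3 days, against 4.97, 6.06 and 5.77 in SE, and the 2 groups overlapped.

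In complex III 4 of 8 genes passed at 3 days. Uqcrc1, a core protein, had 8.19, 9.12 and 8.38 in LR+SE 3 days, against 7.16, 6.27 and 6.09 in SE, and rose by 2.06 ± 0.31 (adjusted p = 3.16e-04). Its partner Uqcrc2 had 7.08, 7.45 and 6.87 in LR+SE 3 days, against 6.53, 6.24 and 5.87 in SE, and 0.92 ± 0.57 did not pass (adjusted p = 0.393). The groups were separate for both. Uqcrfs1, the Rieske iron-sulfur protein, rose by 1.42 ± 0.38, Uqcrb, which helps bind ubiquinone, by 2.30 ± 0.58, and the small subunit Uqcr10 by 2.03 ± 0.33.

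In complex II Sdhd was the single call at 3 days, with 10.96, 10.59 and 11.34 in LR+SE 3 days, against 8.32, 9.05 and 9.31 in SE, and rose by 2.07 ± 0.60 (adjusted p = 0.0395). Sdhb, separate between the groups, had 1.26 ± 0.40 (adjusted p = 0.0659) and Sdhc 0.84 ± 0.33 (adjusted p = 0.139). Sdha had 7.19, 7.09 and 7.31 in LR+SE 3 days, against 7.08, 7.39 and 6.63 in SE, a difference of 0.17 ± 0.45 (adjusted p = 0.884) with overlapping groups. Over all complexes, 67 of the 84 genes had every LR+SE 3 days array above every SE array, and 13.1% of all clusters were separated in that direction.

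At 7 days the calls were 4 of 35 genes in complex I, 0 of 4 in II, 2 of 8 in III, 6 of 20 in IV and 9 of 17 in V. Atp5o had 10.25, 11.08 and 12.26 in LR+SE 7 days, against 7.00, 8.60 and 8.25 in SE, and rose by 3.25 ± 0.64 (adjusted p = 0.0126). Ndufb9 had 11.01, 12.39 and 12.57 in LR+SE 7 days, against 8.51, 9.87 and 8.92 in SE, and rose by 2.89 ± 0.67 (adjusted p = 0.0299). The groups were separate for both, with replicate 1 of LR+SE 7 days the lowest of its group. Atp5g1 rose by 3.07 ± 0.77, Cox6b1 by 2.86 ± 0.64, Cox6a1 by 2.83 ± 0.61, Cox6c by 2.70 ± 0.60, Atp5b by 2.52 ± 0.47 and Ndufa8 by 2.29 ± 0.42. For 59 genes the groups were separate with LR+SE higher, as were 10.1% of all clusters.

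Other measures moved with these results. Of the 11 hepatocyte genes, 10 rose in LR+SE 3 days against SE with a median of 5.15, and 1 rose in LR+SE 7 days against SE with a median of 0.86. Of 9 sinusoidal endothelial genes, 1 rose in LR+SE 3 days against SE with a median of 0.22, and 2 rose in LR+SE 7 days against SE, where all 9 differences were positive with a median of 1.59. In LR+SE 3 days against SE, 5 of 8 monocyte genes and 2 of 11 neutrophil genes also rose. In LR+SE 24 h against SE, 10 of 11 neutrophil genes rose with a median of 6.92. There 3 of 8 monocyte genes rose with a median of 2.77 and 1 of 11 hepatocyte genes with 2.40. The mean of the 11 neutrophil genes lay between 13.3 and 13.9 on the LR+SE 24 h arrays and between 5.90 and 9.10 on the SE arrays. With the hepatocyte mean as a covariate, 0 of the 84 genes passed at 3 days, with a median difference of 0.96 and a median standard error of 0.78 in place of 0.42. At 7 days 10 genes passed with that covariate, and the share of all clusters there is not given here. With the array quality measure as a covariate 0 genes passed at either time, with medians of 0.47 at 3 days and 0.29 at 7 days. The signs of Sdhd, Ndufs7, Atp5c1 and Atp5d at 3 days and of Atp5d at 7 days turned negative with the quality covariate, and that of Cox4i1 at 3 days with the hepatocyte covariate. At 3 days, leaving out any 1 array gave 33 to 44 calls. With Y-linked signal as a block 42 genes passed, with the shares of all clusters in these fits not given here. The 7 day count rested on single arrays: it was 0 without replicate 3 of LR+SE 7 days, 4 without its replicate 2, 2 without replicate 1 of SE and 3 without replicate 3 of SE.

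With the spleen in place the median differences after resection were smaller. In LR against intact the median difference of the 84 genes was 0.17 at 24 h, 0.61 at 3 days and 0.52 at 7 days, against 0.01, -0.01 and 0.02 over all clusters. At each time 1 gene passed, and it was higher in LR, while 3.47%, 1.4% and 0.387% of all clusters passed higher and 7.59%, 2.36% and 1% passed in either direction. At 24 h this was Uqcrq, a small subunit of complex III, with 9.62, 8.71 and 9.01 in LR, against 8.31, 7.97 and 7.64 in intact, which rose by 1.14 ± 0.33 (adjusted p = 0.0358). At 3 days it was Ndufv1, with 10.21, 10.13 and 10.21 in LR, against 8.73, 9.21 and 9.45 in intact, which rose by 1.05 ± 0.27 (adjusted p = 0.0393). At 7 days it was Ndufb6, an accessory subunit of complex I, with 9.16, 7.90 and 7.87 in LR, against 5.71, 7.03 and 7.12 in intact, which rose by 1.69 ± 0.38 (adjusted p = 0.0363). The groups were separate in all 3 cases.

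At 3 days 78 of the 84 genes were higher in LR than in intact, and 38 were separate in that direction, as were 11.1% of all clusters. The closest to the threshold were Sdhb (1.52 ± 0.40, adjusted p = 0.0511) and Sdhc (1.22 ± 0.33, adjusted p = 0.0526). Sdhb had 11.53, 11.48 and 11.69 in LR 3 days, against 9.28, 10.63 and 10.22 in intact, and Sdhc had 8.14, 7.68 and 8.22 in LR 3 days, against 6.87, 6.74 and 6.78 in intact. Both were separate. With Y-linked signal as a block the counts were 0 at 24 h, 2 at 3 days and 0 at 7 days. A fit on the compared arrays alone gave 2 at 24 h, both lower in LR, 13 at 3 days, all higher, and 0 at 7 days. Without the shares of all clusters in these fits, the counts cannot be set beside a general share. The 24 h gene was lost without replicate 2 or 3 of intact or replicate 1 or 3 of LR 24 h. The 3 day count was 0 without replicate 1 of intact or any 1 LR 3 days array and 2 without replicate 2 of intact. The 7 day count was 0 without replicate 1 of intact or of LR 7 days, 2 without replicate 2 of intact and 4 without replicate 2 of LR 7 days.

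Markers of other cells moved in different ways in these comparisons. In LR against intact, 5 of 11 neutrophil genes rose at 24 h with a median of 3.25, 1 of 11 at 3 days with -0.34 and 0 at 7 days with 0.24. Monocyte genes had medians of 1.79, 2.98 and 2.83 at the 3 times, and 4, 4 and 1 of 8 rose. Hepatocyte genes had medians of 0.08, -0.44 and -3.05: at 24 h 1 of 11 rose and 2 fell, at 3 days 2 fell, and at 7 days 4 fell and all 11 differences were negative. Sinusoidal endothelial genes had medians of 0.86, -0.36 and -2.23, with 2 of 9 higher at 24 h, 0 called at 3 days and 5 lower at 7 days. At 7 days the medians of the 84 genes, the monocyte genes and the neutrophil genes were positive, and those of hepatocyte and endothelial genes negative. What part these cells have in the differences was not tested.

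**Figure D3:**
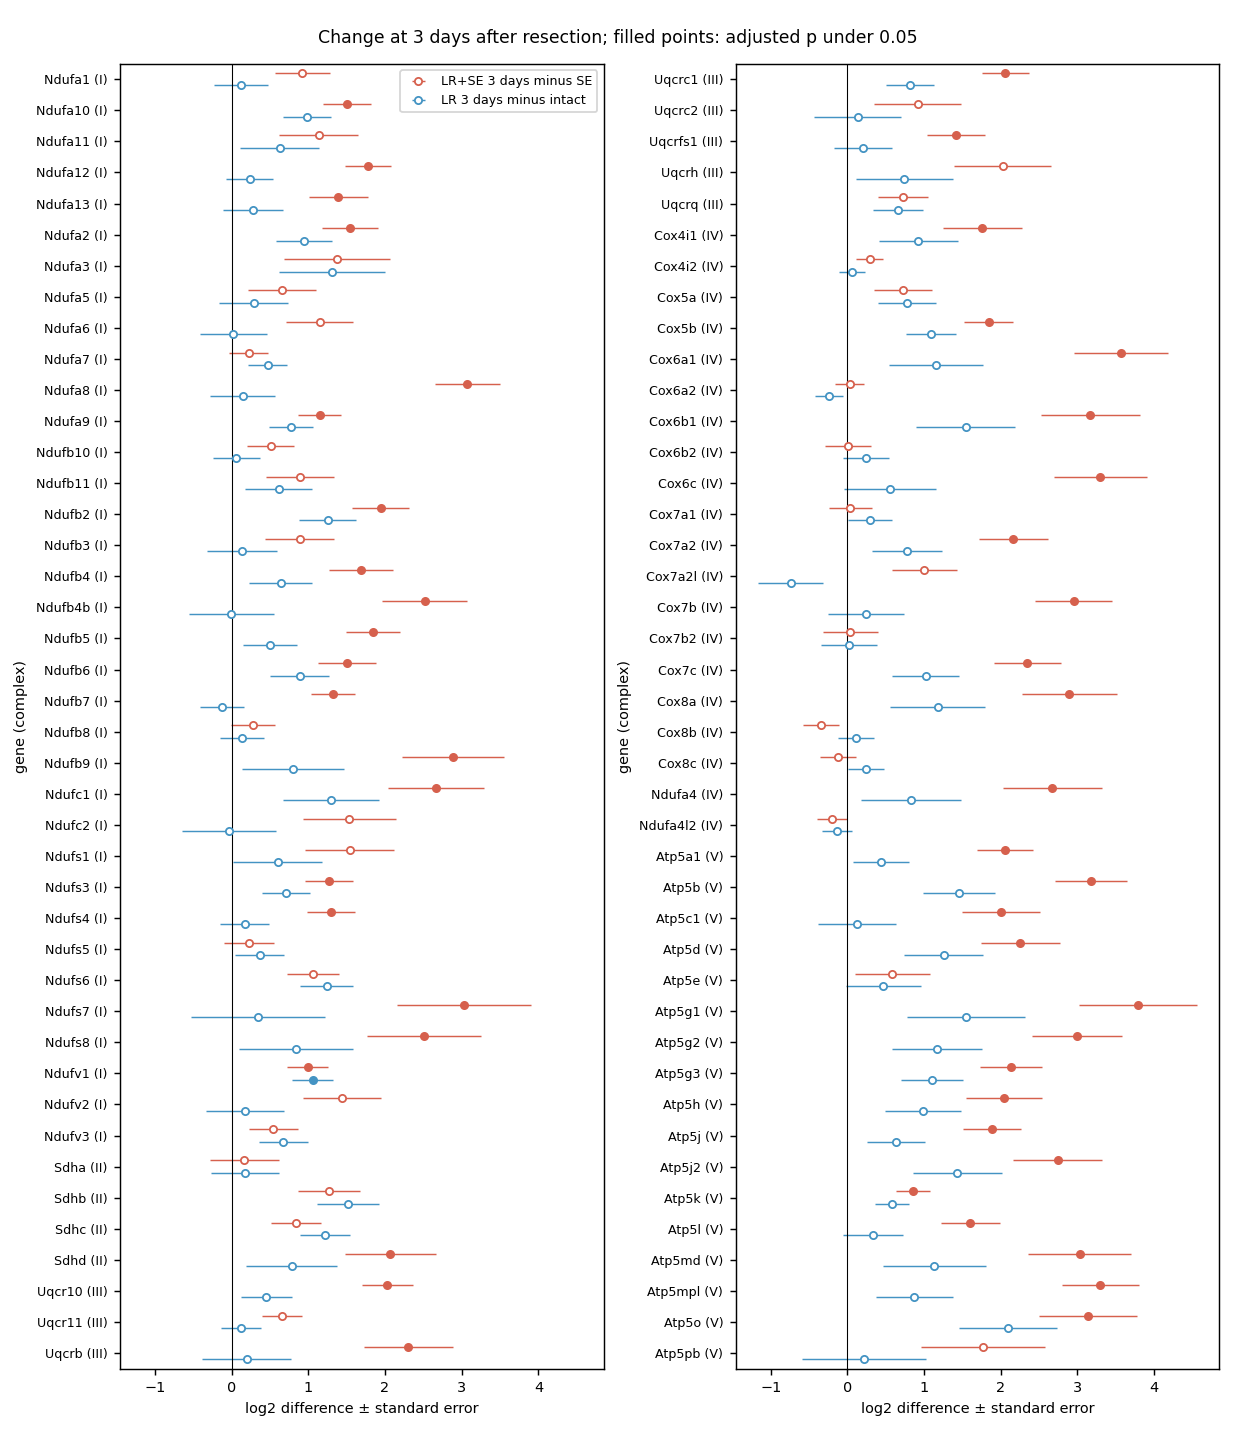
Difference at 3 days after resection for each gene (log2, points, with the standard error as bars), LR+SE minus SE in red and LR minus intact in blue. Filled points passed at adjusted p under 0.05, 49 in LR+SE and 1 in LR.

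Whether the response to resection differed with the spleen status was tested as an interaction: the change in LR+SE against SE minus the change in LR against intact. At 3 days 1 gene passed, with a positive value, while 0.468% of all clusters passed with a positive value and 0.513% in either direction. The median interaction was 1.05, 70 of the 84 values were positive, and 25 genes had an unadjusted p under 0.05, all positive, as did 5.47% of all clusters with a positive value. The gene was Ndufa8, whose change was 3.07 ± 0.42 after splenectomy and 0.15 ± 0.42 with the spleen, an interaction of 2.93 ± 0.60 (adjusted p = 0.0268). Its levels in LR 3 days were 9.82, 10.12 and 10.90, against 10.08, 10.28 and 10.05 in intact, so these groups overlapped. Between LR+SE 3 days and LR 3 days its difference was 0.80 ± 0.42 (limma, adjusted p = 0.801), with overlapping groups. Between SE and intact it was -2.13, so the larger part of the interaction lay between the groups without resection. The interaction call was lost with Y-linked signal as a block, with either covariate, and when single arrays were left out: 9 of the 12 such fits gave 0 calls, and it held without replicate 3 of SE, of LR+SE 3 days or of LR 3 days. A fit on the compared arrays alone gave 4 calls, all positive, with the share of all clusters in that fit not given here. Other genes with a large difference in SE did not pass, such as Ndufs7 (2.69 ± 1.24, adjusted p = 0.508) and Atp5g1 (2.25 ± 1.09, adjusted p = 0.541). At 24 h and 7 days 0 genes passed in limma, while 0.684% and 0.122% of all clusters did. Unadjusted, 8 genes (9.52%) had p under 0.05 at 24 h, against 13% of all clusters, and 25 (29.8%) at 7 days, against 11.1%. The 7 day count was 3 without replicate 2 of LR 7 days and 1 without replicate 1 of LR+SE 7 days.

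**Figure D4:**
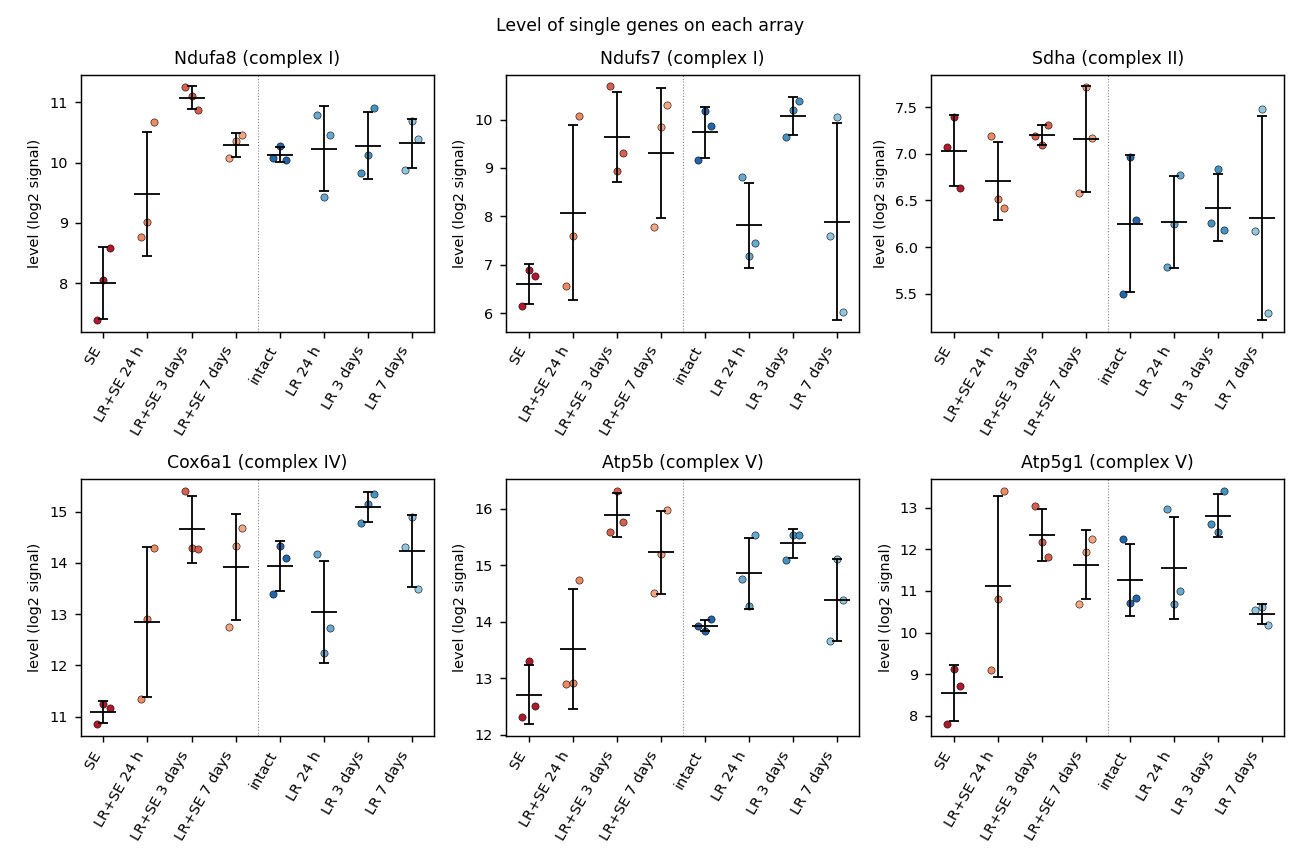
Level (log2 signal) of Ndufa8, Ndufs7, Sdha, Cox6a1, Atp5b and Atp5g1 on each array by group, with the mean ± SD of 3 arrays. Ndufa8 and Cox6a1 in SE lie below every array of intact, while Sdha in SE overlaps it.

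Between LR+SE and LR at the same time, none of the 84 genes passed in limma at any time. At 24 h the median difference was -0.44, and 3.26% of all clusters passed. At an unadjusted p under 0.05 there were 10 of the 84 genes (11.9%), all lower in LR+SE, and 14.3% of all clusters, of which those lower in LR+SE made up 6.61%. Uqcr10 had 5.87, 5.68 and 6.83 in LR+SE 24 h, against 7.78, 6.94 and 6.97 in LR 24 h, and the groups did not overlap (-1.10 ± 0.33, adjusted p = 0.0796). Without replicate 3 of LR+SE 24 h, 7 genes passed, all lower in LR+SE, and the share of all clusters in that fit is not given here. Without replicate 2 of LR 24 h, 1 gene passed, also lower. In LR+SE 24 h against LR 24 h, 4 of 11 neutrophil genes rose with a median of 2.66. There 1 of 11 hepatocyte genes fell with a median of -0.69, and 2 of 9 sinusoidal endothelial genes fell with -1.06. The part of these cells in the differences was not tested.

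At 3 days the median difference was 0.10, and 0.126% of all clusters passed. An unadjusted p under 0.05 was found for 5 of the 84 genes (5.95%) and for 6.94% of all clusters. At 7 days the median was -0.14, and 1.64% of all clusters passed. Unadjusted, there were 10 of the 84 genes (11.9%) and 13% of all clusters, so neither share stood above that of all clusters. Atp5d had 11.88, 13.16 and 13.81 in LR+SE 7 days, against 10.83, 11.96 and 10.71 in LR 7 days (1.79 ± 0.52, adjusted p = 0.0887), and the lowest LR+SE array lay below the highest LR array. Without replicate 2 of LR 7 days, 3 genes passed, 2 of them higher in LR+SE, and without replicate 1 of LR+SE 7 days, 1 did. Other cell markers differed between these groups. In LR+SE 3 days against LR 3 days all 11 hepatocyte differences were positive with a median of 2.32, and 0 passed. In LR+SE 7 days against LR 7 days, 7 of 9 sinusoidal endothelial genes rose with a median of 3.62. The part of these cells in the differences was not tested.

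Between successive times, the median difference was largest in LR+SE between 24 h and 3 days. There 3 genes passed, all of the ATP synthase and all higher at 3 days, while 0.797% of all clusters passed higher and 1.31% in either direction, and the median difference was 0.96 with 46 genes higher at an unadjusted p under 0.05, as were 5.73% of all clusters. Atp5b was at 12.89, 12.91 and 14.74 at 24 h, then 15.58, 16.32 and 15.77 at 3 days, a rise of 2.38 ± 0.47 (adjusted p = 0.0114). Atp5mpl rose by 2.23 ± 0.51 and Atp5a1 by 1.68 ± 0.36. Replicate 3 at 24 h was the high array in Atp5b as in most of these genes, and without it 26 genes passed. The share of all clusters that passed without it is not given here. Leaving out replicate 1 or 2 of LR+SE 24 h or replicate 2 of LR+SE 3 days gave 0, as did a fit on the compared arrays alone, and with Y-linked signal as a block there were 7. Between the same groups 5 of 11 neutrophil genes fell with a median of -5.55, and 2 of 11 hepatocyte genes rose with 2.89. The part of these cells in the differences was not tested. Between 3 and 7 days in LR+SE 0 genes passed in limma, while 1.36% of all clusters did. Unadjusted, 4 genes (4.76%), all lower at 7 days, and 8.88% of all clusters had p under 0.05. Between these 2 groups 7 of 11 hepatocyte genes fell with a median of -4.25, and their part in the differences was not tested.

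In LR, Atp5g2 rose between 24 h and 3 days and Atp5d fell between 3 and 7 days, while 3.13% of all clusters passed higher in the first comparison (5.18% in either direction) and 0.959% lower in the second (1.57% in either direction). Atp5g2 was at 11.68, 10.78 and 11.34 at 24 h, then 13.48, 13.95 and 14.21 at 3 days, a rise of 2.61 ± 0.59 (adjusted p = 0.0110). Atp5d was at 13.26, 13.85 and 13.77 at 3 days, then 10.83, 11.96 and 10.71 at 7 days, and fell by 2.46 ± 0.52 (adjusted p = 0.0189). Neither pair of groups overlapped. The first count became 0 without replicate 2 of LR 24 h or replicate 3 of LR 3 days, 3 without replicate 1 of LR 24 h and 6 in a fit on the compared arrays alone. The second became 0 without replicate 1 or 3 of LR 7 days or replicate 2 or 3 of LR 3 days, and 3 without replicate 2 of LR 7 days. Ndufs7 was widely spread in LR 7 days, at 7.60, 10.06 and 6.03.

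Genes around the chain, with some subunit genes that the names missed, were followed with lists chosen by function. In LR+SE 3 days against SE, 8 of 17 carriers and exchangers rose with a median difference of 1.22, among them Cycs, cytochrome c (1.74 ± 0.40), Cyc1, the cytochrome c1 of complex III (1.45 ± 0.41), and Slc25a5, an ADP and ATP exchanger (2.15 ± 0.57). Of 17 TCA cycle genes 4 rose, with a median of 1.01: Mdh2, malate dehydrogenase (2.61 ± 0.62), Idh3a of isocitrate dehydrogenase (1.92 ± 0.57), Fh1, fumarase (1.81 ± 0.39), and Suclg1 of succinate-CoA ligase (1.27 ± 0.28). Of 42 assembly factors 3 rose, with a median of 0.33, while 5.12% of all clusters rose, so their share was close to the general one. They were Cox17, a copper chaperone for complex IV (1.83 ± 0.54), Uqcc3 of complex III (1.41 ± 0.39) and Ecsit of complex I (1.06 ± 0.28). None of 17 regulators of mitochondrial gene expression passed in limma there, with 2 at an unadjusted p under 0.05 and a median of -0.01. Of 16 glycolysis genes 7 rose and 1 fell, with a median of 1.52, among them Gapdh (3.08 ± 0.56), Ldha, lactate dehydrogenase A (2.61 ± 0.54), and Hk2, hexokinase 2, which fell by 2.15 ± 0.54.

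Other housekeeping families moved beside them. In LR+SE 3 days against SE, 36 of 75 cytoplasmic ribosomal protein genes rose with a median of 1.63, 22 of 76 mitochondrial ribosomal protein genes with 0.81 and 15 of 39 proteasome genes with 1.18. In SE against intact the medians of these families were -0.94, -0.38 and -0.62, with 0, 1 and 0 calls, where -0.78 was the median of the 84 genes. Across the 24 arrays, the mean of the 84 genes had a correlation of 0.98 with that of mitochondrial ribosomal proteins, 0.92 with proteasome genes, 0.87 with cytoplasmic ribosomal proteins, 0.80 with the array quality measure and 0.43 with the hepatocyte mean. These are descriptions over arrays of 8 groups that share groups and libraries. What part of the differences these measures account for was not tested.

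**Figure D5:**
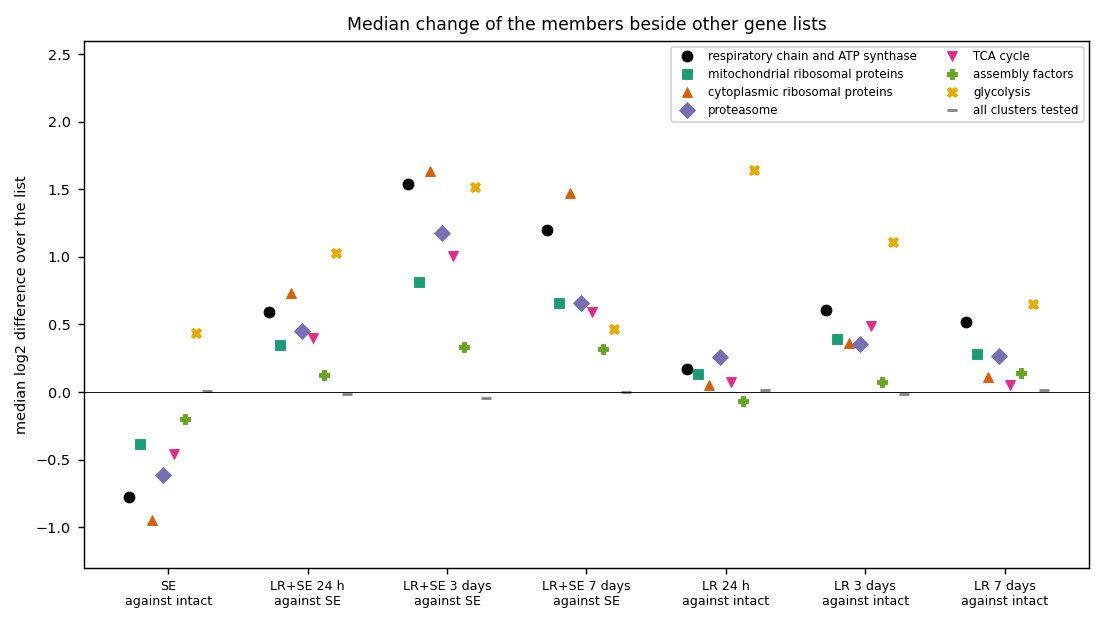
Median log2 difference of the 84 genes and of other gene lists in the comparisons with SE and with intact (symbols, 1 per list). The 84 genes (1.54) lie beside cytoplasmic ribosomal proteins (1.63) and glycolysis (1.52) in LR+SE 3 days against SE, while all clusters stay near 0.

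Within the 84 genes, the shared pattern was uneven. The correlation of a gene with the mean of the others across the 24 arrays had a median of 0.76, and it was over 0.8 for 35 genes. It was highest for Cox7c (0.98), Cox6c (0.97), Ndufc1 (0.96), Atp5j2 (0.95) and Atp5o (0.95). It was 0.42 for Ndufv1, 0.44 for Uqcrq, 0.45 for Sdhc, 0.25 for Ndufb8 and Atp5e and 0.01 for Sdha. After group means were taken out, the median over the 78 genes above background was 0.65, so genes of an array deviated together inside groups too. Promoter letters were set beside the changes of the matched genes above background. In LR+SE 3 days against SE the median difference was 2.06 for the 5 genes with the NRF-1 letters and 1.65 for 60 without, 1.88 for 17 with the ETS letters and 1.61 for 48 without, and 1.88 for 7 with the YY1 letters and 1.65 for 58 without. For CCAAT it was 2.00 for 27 with and 1.47 for 38 without, a wider gap than for any of the other 3 motifs. In SE against intact the median was -0.79 with the NRF-1 letters and -0.91 without, so there the genes with those letters had the smaller difference. The other motifs went the other way: -1.01 with ETS and -0.86 without, -1.10 with YY1 and -0.86 without, -0.98 with CCAAT and -0.84 without. In LR 3 days against intact the medians were 0.82 with NRF-1 and 0.62 without, and 0.78 with ETS and 0.49 without. They were 0.77 with YY1 and 0.62 without, and 0.74 with CCAAT and 0.60 without. These gaps were not tested. Cox6a1 at 3.57, with NRF-1, ETS and CCAAT letters, and Ndufa8 at 3.07, without an exact match to any of them, were both among the larger changes.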

How the data were processed

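RNA of F4/80+ liver macrophages was measured on 24 Clariom S mouse arrays, 3 per group. The log2 signals are those the authors deposited, normalized by RMA (robust multi-array averaging) in the Transcriptome Analysis Console, with versions not given in the sources used here. No raw scans or scan dates were used, so background correction and scan batches were not examined. The number of arrays limits the precision.

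The table held 28846 entries. Without its 6640 control probesets, 22206 clusters remained and entered 1 fit in limma 3.58.1 (lmFit and eBayes, R 4.3.3) over the 24 arrays, with a mean for each group. The residual degrees of freedom were 16 and the prior ones 4.23. In 17 comparisons and an F test, a call was a two-sided Benjamini-Hochberg adjusted p under 0.05 over all clusters. Groups were called separate where their ranges of 3 values did not overlap. The smallest exact permutation p for 3 against 3 arrays is 0.1, so calls rest on the pooled spread. The fit was tested on simulated data with known changes and noise drawn independently for each cluster. That simulation does not address counts of genes that deviate together, as these genes did.

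Where clusters shared a symbol, the brightest on average stood for the gene. Single genes were named as up to 6 of the largest called changes without overlap in each direction, core subunits and tissue forms of each complex, and others that show each list. The members and lists were chosen with earlier results of these data known. Alternatives were a variance trend, a filter on dim clusters, quantile normalization, blocks for replicate number and Y-linked signal, a fit on the compared arrays alone, and leaving out arrays. Covariates for hepatocyte genes and array quality were added after seeing the data. No array had the values of another (highest correlation 0.991). Software for the plots was matplotlib 3.10.9 under python 3.11.15.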

Additional observations from a re-analysis of the deposited data

Results flagged for a closer look

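For Ndufa8, an accessory subunit of complex I, the change at 3 days after resection in LR+SE against SE exceeded that in LR against intact by 2.93 ± 0.60 on the log2 scale (limma, adjusted p = 0.0268), a difference between the 2 responses that was tested itself. It was the only one of the 84 genes to pass, where 0.468% of all clusters passed with a positive value, and over 20 alternative fits its adjusted p ran from 0.0170 to 0.998, passing in 8. After resection, LR+SE 3 days against LR 3 days differed by 0.80 ± 0.42 (limma, adjusted p = 0.801) with overlapping groups. Without resection, SE against intact differed by -2.13, and these 2 groups also differed in Y-linked signal.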

How the results depend on the processing

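Counts are of the 84 genes. The share of all clusters that passed in each alternative fit is not given here, so these counts cannot be set beside a general share. Only the arrays compared gave 2 (LR 24 h against intact, both lower), 13 (LR 3 days against intact), 0 (LR 7 days against intact), 12 (SE against intact), 6 (LR 3 days against LR 24 h), 0 (LR+SE 3 days against LR+SE 24 h) and 4 (interaction at 3 days). The variance trend gave 0, 0 and 3 for LR 24 h and LR 3 days against intact and LR 3 days against LR 24 h. Leaving out dim clusters (78 genes kept) gave 4 for LR 3 days against intact, 5 for SE against intact, 1 for LR+SE 7 days against LR 7 days, 3 for LR 3 days against LR 24 h and 1 for the interaction at 7 days. Quantile normalization gave 3 and 2 for LR 3 and 7 days against intact, 2 for LR+SE 7 days against LR 7 days and 2 for LR 7 days against LR 3 days. The Y-linked block gave 0, 2 and 0 for LR 24 h, 3 days and 7 days against intact, 0 for SE against intact, 3 for LR+SE 7 days against LR 7 days, 3 for LR 3 days against LR 24 h, 3 for LR 7 days against LR 3 days, 7 for LR+SE 3 days against LR+SE 24 h and 0 for the interaction at 3 days. With the array quality measure as a covariate, SE against intact, LR+SE 3 and 7 days against SE and the interaction at 3 days gave 0 each. The hepatocyte mean gave 0, 0, 10 and 0 for the same 4 comparisons. Differences that turned negative with the quality covariate were Sdhd (-0.12), Ndufs7 (-0.70), Atp5c1 (-0.11) and Atp5d (-0.12) in LR+SE 3 days against SE and Atp5d (-0.11) in LR+SE 7 days against SE. With the hepatocyte mean, Cox4i1 (-0.32) did so in LR+SE 3 days against SE. The cause was not tested. These covariates differ between the groups themselves. Single genes kept direction and side of the threshold in 7142 of their alternative fits, lost the call in 384, gained one in 55 and reversed in 6. These counts pool results called in the main fit with results not called there, so they do not give the share of calls that held. Leaving out single arrays gave 0 to 1, 0 to 2 and 0 to 4 for LR 24 h, 3 days and 7 days against intact, 0 to 1 for SE against intact, 0 to 2, 33 to 44 and 0 to 24 for LR+SE 24 h, 3 days and 7 days against SE, 0 to 7, 0 to 0 and 0 to 3 for LR+SE against LR at those times, 0 to 3 for LR 3 days against LR 24 h, 0 to 3 for LR 7 days against LR 3 days, 0 to 26 for LR+SE 3 days against LR+SE 24 h, 0 to 0 for LR+SE 7 days against LR+SE 3 days, 0 to 0, 0 to 1 and 0 to 3 for the interactions and 34 to 51 for the F test. A replicate block gave 48 calls for LR+SE 3 days against SE and 20 for LR+SE 7 days against SE, and no count moved by over 1.5 times. Replicate numbers did not pair the samples: deviations of arrays with the same number correlated with a median of -0.01 (28 of 84 pairs over 0.1), against -0.02 for different numbers (48 of 168 pairs).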
